A study of Mus musculus with 22 samples.

Results

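The comparison made here is diet against chow at lights off, in 5 of the 22 RNA-seq libraries of a mouse liver series sampled around the clock. The 3 diet libraries came from mice fed CDA-HFD, a high-fat diet without choline whose protein the labels call amino-acid adapted, and the 2 control libraries from mice fed chow. All 5 carry the time label ZT12, zeitgeber time 12 h, the start of darkness at 7 pm in this colony, and were chosen by the sample titles. The growth protocol gives mice 8 weeks old at the start and 12 weeks of feeding, and the age label gives 20 weeks, while the treatment label of the diet group gives 6 months. The labels call the cells HSC and give liver as the tissue, and they do not state a strain, a sex or a genotype. The other 17 libraries, from ZT0, ZT6 and ZT18, served to estimate the spread and to ask what differed at ZT12. Of 55367 listed genes, 22409 had enough reads to be tested. The labels do not say that each library is its own animal, so a p-value speaks to variation among the libraries only, and that variation can be technical.

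Hepatic stellate cells, the usual meaning of HSC, store retinoids in the healthy liver and can turn into matrix-making myofibroblasts when it is injured. The circadian clock is a loop in which the activators encoded by Arntl and Clock switch on their own repressors (Per, Cry and Nr1d genes) and output factors such as Dbp, so that their transcripts rise and fall once a day. Feeding time is a strong cue for the liver clock, and mice begin to eat at lights off. Chaperones of the endoplasmic reticulum (ER), led by Hspa5, which encodes BiP, follow the load of secretory proteins, and sterol genes follow the supply of cholesterol.

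The libraries held 21027226 to 41665623 counts in genes at ZT12, within the 19754805 to 41665623 of the series, and replicate 2 of control ZT12 was the deepest. Levels are given as CPM, read counts after TMM scaling to a common library size, and are not corrected for gene length. Several genes that define stellate cells were low in all 5 libraries. Lrat, which makes retinyl esters, had 1.57, 1.13 and 2.67 CPM in the diet libraries, against 0 and 1.73 CPM in the control libraries. Des, an intermediate filament gene, had 8.55, 5.99 and 6.21 CPM under diet, against 3.36 and 4.96 CPM in control. Hand2, a stellate cell transcription factor, stayed between 0.168 and 0.671 CPM under diet, against 0.0908 and 0.153 CPM in control. The scavenger receptor Stab2, which marks sinusoidal endothelium, had 208, 315 and 245 CPM under diet, against 5502 and 5362 CPM in control. Not all members of the stellate and fibroblast list were low. Dcn, a proteoglycan gene also counted here as a stellate marker, lay well above Lrat, Des and Hand2 in all 5 libraries (values below). Ecm1, a matrix protein gene that other cells also express, had 43.3, 32.6 and 28.2 CPM under diet, against 330 and 270.5 CPM in control (log2 -3.11, adjusted p = 4.5e-08). The label HSC was not clearly borne out by these genes, and the libraries are called here by diet and time. In bulk RNA, fewer cells of a type and less RNA per cell cannot be told apart.

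Replicate 2 of control ZT12 stood out from the other 4 ZT12 libraries by transcripts of another organ. Cyp11b1, which makes corticosterone in the adrenal cortex, had 0.0895, 0.0419 and 0.188 CPM in the diet libraries, against 0.0454 and 24.1 CPM in control replicates 1 and 2. Cyp21a1, a steroid hydroxylase, had 2.42, 0.251 and 0.339 CPM under diet, against 0 and 56.8 CPM in control. Hsd3b1, which makes progesterone in the adrenal, had 4.79, 0.377 and 0.264 CPM under diet, against 0 and 92.0 CPM in control. Each of the 3 was highest by far in control replicate 2, and control replicate 1 lay within or below the diet values. Cyp21a1 and Hsd3b1 have close relatives with which their reads could be shared. Star, which carries cholesterol into mitochondria, had 9.04, 3.94 and 4.14 CPM under diet, against 26.5 and 138 CPM in control. Cyp11a1, the first enzyme of steroid synthesis, had 7.56, 5.07 and 3.46 CPM under diet, against 0.727 and 62.4 CPM in control. The same library held transcripts of lung and pancreas: Sftpc, a surfactant gene, had 743 reads in it and 0 in each of the other 4, and Pnlip, pancreatic lipase, had 231 reads in it and 0 or 1 in the others. The summed level of the adrenal cortex list (17 tested genes) ran from 321 to 382 CPM under diet, against 593 and 986 CPM in control. Scarb1 alone gave 320.5 and 340.5 CPM of the control sums, so the sum does not measure adrenal RNA alone. The mean log2 CPM of 7 genes of the list, Scarb1 not among them, was -1.01 to 0.28 under diet, against -1.47 and 5.04 in control. The same mean was 4.67 to 6.09 in the 3 control libraries of ZT18 and 4.84 in diet ZT18 replicate 1, which enter the comparison with the other times; its part there was not tested beyond a fit with this mean as a covariate, which called 2 genes. Among the adrenal cortex genes 11 were called lower and 1 higher with both controls (median log2 change -3.86), and 2 lower and 1 higher without control replicate 2 (median 1.14). Of 10 adrenal medulla genes 1 was called, the vesicular transporter Slc18a2, with 2.51, 1.68 and 2.98 CPM under diet, against 19.2 and 15.7 CPM in control (log2 -2.86). Th, which makes the precursor of catecholamines, was at 0 in all 3 diet libraries and control replicate 1 and at 0.483 CPM in control replicate 2.

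**Figure D1:**
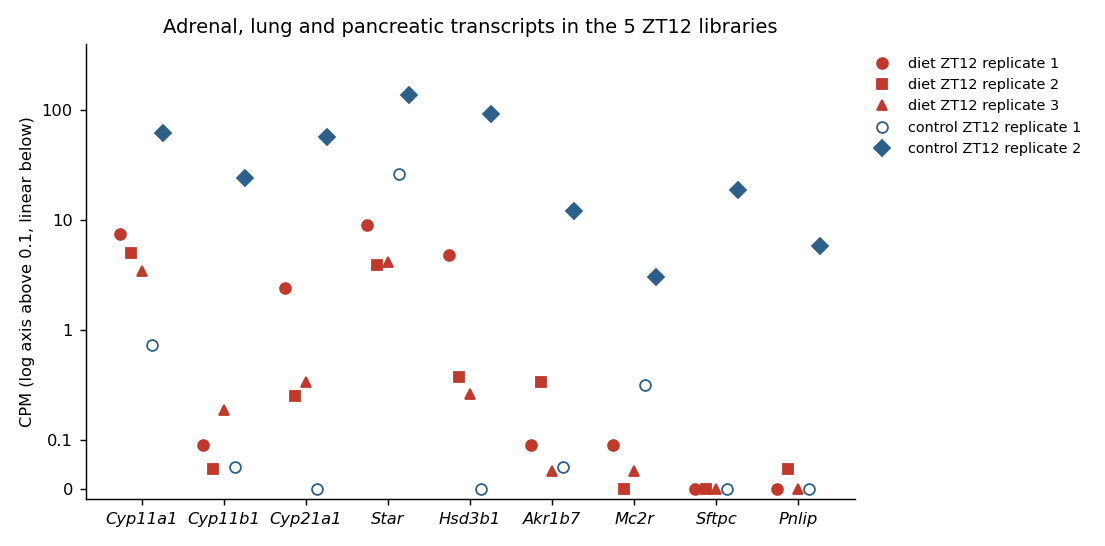
CPM of 7 adrenal cortex genes, the lung gene Sftpc and the pancreatic gene Pnlip in each of the 5 ZT12 libraries, on an axis that is logarithmic above 0.1 CPM and linear below; red marks are diet libraries, blue marks control libraries. Control replicate 2 (filled diamonds) lies above the other 4 libraries for every gene shown, with Hsd3b1 at 92.0 CPM against 0 CPM in control replicate 1.

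Diet changed 6641 of the 22409 tested genes at ZT12 (29.6%) at an adjusted p under 0.05 (quasi-likelihood test of edgeR, p-values adjusted by Benjamini-Hochberg, here and below). Of these 3205 were higher under diet (14.3%) and 3436 lower (15.3%), and over 2-fold 2361 were higher (10.5%) and 2259 lower (10.1%). The counts of list members called with both controls, given below, are to be read beside the shares of 14.3% and 15.3%. The 3 diet and 2 control values did not overlap in 11772 genes (52.5%), with diet higher in 5972 (26.7%) and lower in 5800 (25.9%). Scaling by library size alone gave 4221 higher and 2683 lower (61.1% higher, against 48.3% higher with TMM) and moved the median log2 change of all genes to 0.27, against 0.06 with TMM. Without control replicate 2 the test called 4755 of 25744 genes (18.5%). Of the 6641 genes, 4546 (68.5%) were called in the same direction without it, 2095 were not called and 0 were called the other way (edgeR; 11 changed sign below the threshold). Control replicate 1 by itself lay beyond all 3 diet libraries, on the side of the call, in 6608 of the 6641 (99.5%). That library entered the test that made the calls, so this share is partly built in and is not a separate check. In the other 33 genes control replicate 1 did not lie beyond the diet libraries. Among them Cyp11a1, Cyp11b1, Cyp11b2, Cyp21a1, Akr1b7, Hsd3b6, Sftpc and Pnlip were highest in control replicate 2. Some others of the 33 were not highest in that library. Ctsg had 3.36, 0 and 1.62 CPM under diet, against 0 CPM in both control libraries. Its log2 change was 8.41, and 8.38 without control replicate 2. The size of the change thus hardly moved, but Ctsg was no longer called in that fit. Without control replicate 1 in its place 4659 genes were called.

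Endothelial genes were lower under diet throughout. All 28 measured members were called lower, with a median log2 change of -4.14 against 0.06 for all genes tested, and all 28 were lower without control replicate 2 as well. Kdr, a VEGF receptor of endothelial cells (chromosome 5, 75932827 to 75978458 on GRCm38), had 101, 132 and 116 CPM in the diet libraries, against 3157 and 2808 CPM in the control libraries. Both control values were far above every diet value, and the log2 change was -4.68 ± 0.22 (SE; adjusted p = 2.54e-11). Gpihbp1, which carries lipoprotein lipase across capillary walls, had 130, 146 and 135 CPM under diet, against 1908 and 1825 CPM in control. Dnase1l3, a secreted nuclease of sinusoidal endothelium, had 254, 424 and 361 CPM under diet, against 7658 and 7529 CPM in control. The summed level of the list was 2415 to 3414 CPM under diet, against 55030 and 51490 CPM in control. Control replicates 1 and 2 were thus close for these genes, although they differed in adrenal transcripts.

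The 10 largest falls are given for genes with a mean log2 CPM of at least 2, chosen for groups that do not overlap and for a call that held without control replicate 2, so their separation is part of the choice. Genes below that level could fall further. Colgalt2, a collagen galactosyltransferase (chromosome 1, 152399830 to 152510695), had 1.21, 0.964 and 0.603 CPM under diet, against 57.2 and 51.8 CPM in control (log2 -5.89 ± 0.60, adjusted p = 1.8e-07). Ackr4, a decoy receptor for chemokines, had 5.01, 5.66 and 5.84 CPM under diet, against 168 and 150 CPM in control. Ces2e, a carboxylesterase (log2 -4.89), and Cyp4b1, a fatty acid hydroxylase (-4.71), fell to a similar degree. The others were the phospholipase receptor Pla2r1 (-4.84), the transmembrane collagen Col13a1 (-4.73), the vesicle GTPase Rab3b (-4.71), Kdr, the arterial connexin Gja4 (-4.67) and Olfr1396, which is named as an olfactory receptor (-4.93). Olfr1396 belongs to a large family of similar genes, so its reads could be shared with relatives.

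Matrix genes fell less uniformly. In the collagen and matrix list 13 of 28 fell and 1 rose (median -1.48), and 12 fell and 0 rose without control replicate 2. The gene that rose was Col18a1 (log2 1.995), a basement membrane collagen named here after its value was seen. The protease inhibitor Timp3 had 117, 92.4 and 84.0 CPM under diet, against 1543 and 1583 CPM in control. The basement membrane collagen Col4a1 had 40.4, 24.7 and 19.3 CPM under diet, against 340 and 277 CPM in control, and Sparc and Bgn changed by -2.82 and -3.23 on the log2 scale. In the stellate and fibroblast list 3 of 23 rose and 2 fell (median -0.01), so most of its members did not pass the test. These counts were near or below the shares of all tested genes (14.3% higher and 15.3% lower). Dcn, a proteoglycan of stellate cells and fibroblasts, had 250, 63.3 and 50.1 CPM under diet, against 222 and 286 CPM in control. It was not called (adjusted p = 0.144). Diet replicate 1 was the highest of the diet libraries for Dcn and for several epithelial genes below. Mesothelial genes had 1 of 10 higher, the keratin Krt19 (log2 1.57) that bile duct cells also make, and 1 lower, the mesothelin gene Msln (-1.80), and neither was called without control replicate 2. Krt19 was also not called without diet replicate 1 (log2 0.65).

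Genes of lymphocytes were higher under diet. In the T and NK cell list 23 of 26 rose and 0 fell (median 2.01), with 22 higher without control replicate 2. Eomes, a T-box factor of memory and exhausted T cells and NK cells (chromosome 9, 118478212 to 118486132), had 37.9, 34.4 and 102 CPM under diet, against 0.0454 and 0.178 CPM in control. Gzmk, granzyme K, had 138, 163 and 480 CPM under diet, against 0.363 and 2.19 CPM in control. Pdcd1, which encodes the checkpoint receptor PD-1, had 201, 166 and 456 CPM under diet, against 2.41 and 4.30 CPM in control. Replicate 3 was the highest of the diet libraries in all 3, which were chosen by the same rule as the largest falls. The log2 changes were 8.77 ± 0.70 for Eomes, 7.53 ± 0.79 for Gzmk and 6.32 ± 0.76 for Pdcd1 (adjusted p 6.55e-09, 2.74e-07 and 1.77e-06). Tigit, another checkpoint receptor, changed by 6.39, and Rgs16, a regulator of G protein signalling, by 6.80. With control levels this low, 1 library moved these sizes and no call: without control replicate 2 the log2 change was 10.2 for Eomes, 9.45 for Gzmk and 5.93 for Rgs16. Without control replicate 1 it was 6.89 for Gzmk and 8.01 for Rgs16. Without diet replicate 3 it was 8.09 for Eomes, 6.74 for Gzmk, 6.197 for Rgs16 and 5.73 for Tigit. B and plasma cell genes rose in 12 of 16 and fell in 0 (median 2.23). Cd79b, a signalling chain of the B cell receptor, had 89.7, 160.2 and 106.5 CPM under diet, against 20.0 and 14.8 CPM in control (log2 2.77).

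Myeloid genes moved in both directions. Macrophage and Kupffer cell genes rose in 19 of 25 and fell in 2 (median 1.95). Aif1, a cytoskeletal protein of macrophages, had 115, 69.7 and 78.7 CPM under diet, against 11.2 and 11.4 CPM in control. Mertk, a receptor for dying cells that endothelium also makes, had 36.2, 30.2 and 30.1 CPM under diet, against 491 and 488 CPM in control. The list of lipid-associated macrophages split into 9 higher and 6 lower of 16 (median 2.10): the scavenger genes Trem2 (3.94) and Gpnmb (2.73) and the elastase Mmp12 (5.91, and 9.59 without control replicate 2 or 5.16 without replicate 1) rose, and Ctsl (-2.24), Apoe (-1.53) and Ctsd (-0.82), which many cell types express, fell. Neutrophil and dendritic cell genes rose in 14 of 22 and fell in 3 (median 2.75). The member of that list with the smallest p was among those that fell (log2 -2.74). It had 41.85, 45.7 and 52.2 CPM under diet, against 327.5 and 295.7 CPM in control. Xcr1, the chemokine receptor of cross-presenting dendritic cells, had 80.6, 79.1 and 66.4 CPM under diet, against 4.63 and 2.90 CPM in control. Antigen presentation genes rose in 12 of 16 and fell in 0 (median 2.03), and the class II gene H2-Ab1 had 2812, 2681 and 2370 CPM under diet, against 366 and 195 CPM in control. Histocompatibility genes resemble each other, so their reads could be shared.

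Most inflammatory mediators were higher under diet. Of 28 chemokine and inflammation genes 22 rose and 4 fell (median 2.39), and 17 rose and 4 fell without control replicate 2. Il1rn, the antagonist of the interleukin 1 receptor (chromosome 2, 24336853 to 24351494), had 130, 50.3 and 62.4 CPM under diet, against 0.636 and 0.763 CPM in control. Il10, an anti-inflammatory cytokine, had 38.7, 6.83 and 61.7 CPM under diet, against 0.0454 and 0.611 CPM in control, with the diet libraries far apart from each other. Its log2 change was 6.53, and 9.46 without control replicate 2, 5.86 without control replicate 1 and 5.88 without diet replicate 3. Il1b rose (log2 4.14) and Il1a fell (-3.33), and the chemokines Ccl3 (4.81) and Ccl4 (4.12) rose while Cxcl16 (-1.45) fell. Interferon-stimulated genes had no common direction, with 5 higher and 6 lower of 22 (median -0.11), and 4 and 3 without control replicate 2. Cd200r2, a receptor of the myeloid CD200 family (6.34, and 7.87 without control replicate 2), Cd101, a marker of some T and myeloid cells (5.78), and Mmp12 complete the 10 largest rises at a mean log2 CPM of at least 2; genes below that level could rise further.

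Epithelial transcripts were higher under diet beside these immune genes. Cholangiocyte genes rose in 16 of 19 and fell in 0 (median 2.63), and their summed level was 2488 to 5822 CPM under diet, against 666 and 477 CPM in control. Krt18, a keratin, had 358, 146 and 157 CPM under diet, against 34.8 and 27.1 CPM in control. Hepatocyte genes rose in 13 of 30 and fell in 3 (median 0.49), with 5 rising and 3 falling without control replicate 2. Albumin (Alb) had 815, 423 and 447 CPM under diet, against 124 and 88.8 CPM in control, while the serpin Serpina3k fell (log2 -1.64) and the urinary protein gene Mup3 fell (-2.40), each of a family of near-identical genes. The summed hepatocyte list was 1890 to 2669 CPM under diet, against 1021 and 788 CPM in control. Hepatocyte RNA thus moved with diet in these libraries, and its part in the other changes was not tested apart from the fit with a hepatocyte score, which called 1214 genes (328 higher, 886 lower). Erythroid genes had 0 of 9 called by edgeR, and 5 of the 9 had an unadjusted p under 0.05 in the comparison of the diet effect with that at the other times, against 7.27% of all genes.

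**Figure D2:**
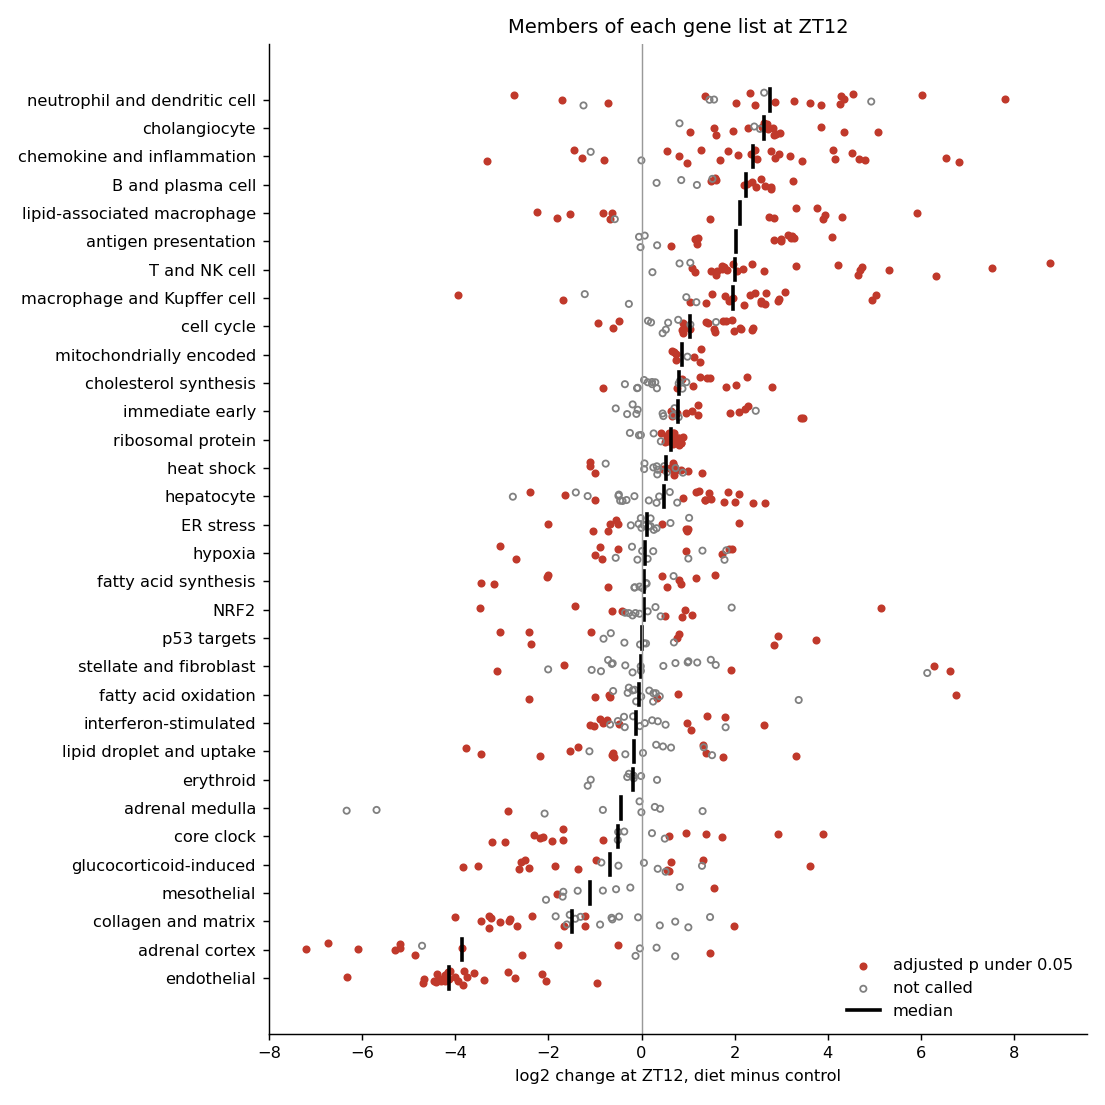
Log2 change at ZT12 (diet minus control, horizontal axis) of each tested member of 32 gene lists, ordered by the list median; filled red points passed an adjusted p of 0.05, open points did not, and black bars are medians. The endothelial list lies lowest, at a median of -4.14, and the neutrophil and dendritic cell list highest, at 2.75.

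Clock genes changed in both directions, with the largest falls in the output factor Dbp and the repressor Nr1d1. At ZT12 9 of 20 clock genes were lower under diet and 6 higher (median -0.51), and 7 were lower and 6 higher without control replicate 2. Dbp, a clock output factor (chromosome 7, 45705088 to 45710203), had 14.1, 10.9 and 12.1 CPM in the diet libraries, against 129 and 99.4 CPM in the control libraries. Every diet value was far below both control values, and the log2 change was -3.21 ± 0.24 (adjusted p = 2.73e-09). Nr1d1, which encodes the repressor REV-ERB alpha, had 41.5, 38.8 and 23.7 CPM under diet, against 271 and 253 CPM in control (-2.92 ± 0.24, adjusted p = 9.93e-09). Its relative Nr1d2 had 31.9, 41.4 and 34.1 CPM under diet, against 108 and 122 CPM in control. Tef, a partner of Dbp, had 12.6, 18.5 and 9.98 CPM under diet, against 64.3 and 60.1 CPM in control, and Hlf, the third factor of that family, changed by -2.12. The repressors Per2 and Per3 had log2 changes of -1.93 and -1.70, Bhlhe41 of -2.32 and Cry2 of -0.83. The calls on Cry2 and Hlf ended without control replicate 2 (adjusted p 0.0988 and 0.0966), without control replicate 1 (0.0763 and 0.109) and without diet replicate 2 (0.0925 and 0.0648), and that on Hlf also without diet replicate 1 (0.0973). The call on Bhlhe41 ended without control replicate 1 (0.0796).

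Other members of the loop were higher. Nfil3, a repressor that opposes Dbp at its target sites, had 78.4, 57.5 and 56.8 CPM under diet, against 3.45 and 5.09 CPM in control (log2 3.89 ± 0.39, adjusted p = 1.34e-07). Arntl, the activator itself, had 11.6, 25.4 and 15.9 CPM under diet, against 5.54 and 7.91 CPM in control. Bhlhe40 (1.73), Rora (0.96) and Per1 (0.59) rose too. Per1 was higher with 97.1, 93.3 and 98.5 CPM under diet, against 56.0 and 72.1 CPM in control, in contrast to its relatives Per2 and Per3. Without control replicate 1 the calls on Arntl (adjusted p = 0.0517), Per1 (0.218) and Rora (0.218) ended, and without diet replicate 2 that on Rora (0.114). Clock, Cry1, Ciart, Usp2 and Npas2 were not called, and Ciart had 9.35, 13.4 and 14.0 CPM under diet against 16.7 and 15.0 CPM in control.

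Set against the other times, the clock genes differed in how far diet and control were apart. Under diet Dbp averaged 3.99 CPM (ZT0), 11.5 CPM (ZT6), 12.4 CPM (ZT12) and 4.90 CPM (ZT18). In control it averaged 5.16 CPM (ZT0), 53.7 CPM (ZT6), 114 CPM (ZT12) and 12.4 CPM (ZT18). ZT12 was thus the time of the highest control level of Dbp. Its diet effect of -3.21 there stood beside -0.37 (ZT0), -2.22 (ZT6) and -1.34 (ZT18). The diet effect at ZT12 minus its mean at the other times was -1.90 ± 0.27 (edgeR, adjusted p = 0.00994). Against single times it was called against ZT0 (adjusted p = 0.000476) and missed the threshold against ZT6 (0.479) and ZT18 (0.0609). Without diet replicate 2 or 3 of ZT12 the call was lost (adjusted p 0.0632 and 0.0758), as it was without control replicate 1 (log2 -1.69, adjusted p = 0.117), while without control replicate 2 it stood (log2 -2.08, adjusted p = 0.0252). Of the 20 clock genes 15 had an unadjusted p under 0.05 in this comparison, against 1629 of all 22409 genes (7.27%), and 13 of 20 without control replicate 2. Among them Dbp alone passed the adjusted threshold. Nr1d1 (-1.39) and Nr1d2 (-1.12) had an adjusted p of 0.0899 and Arntl (1.65) of 0.114. Arntl was lower under diet at ZT0 (log2 -1.11) and higher at ZT12 (1.38), and the difference of these was called (2.49, adjusted p = 0.0127). An E-box, CACGTG on either strand, stood in the RefSeq promoter window (250 bases before to 50 after the start) of 5 of 17 clock genes with a promoter, and in 7.15% of all 32851 promoters. Here genes with any matching promoter stand beside single promoters, which are unlike measures. The window of Dbp held no match.

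**Figure D3:**
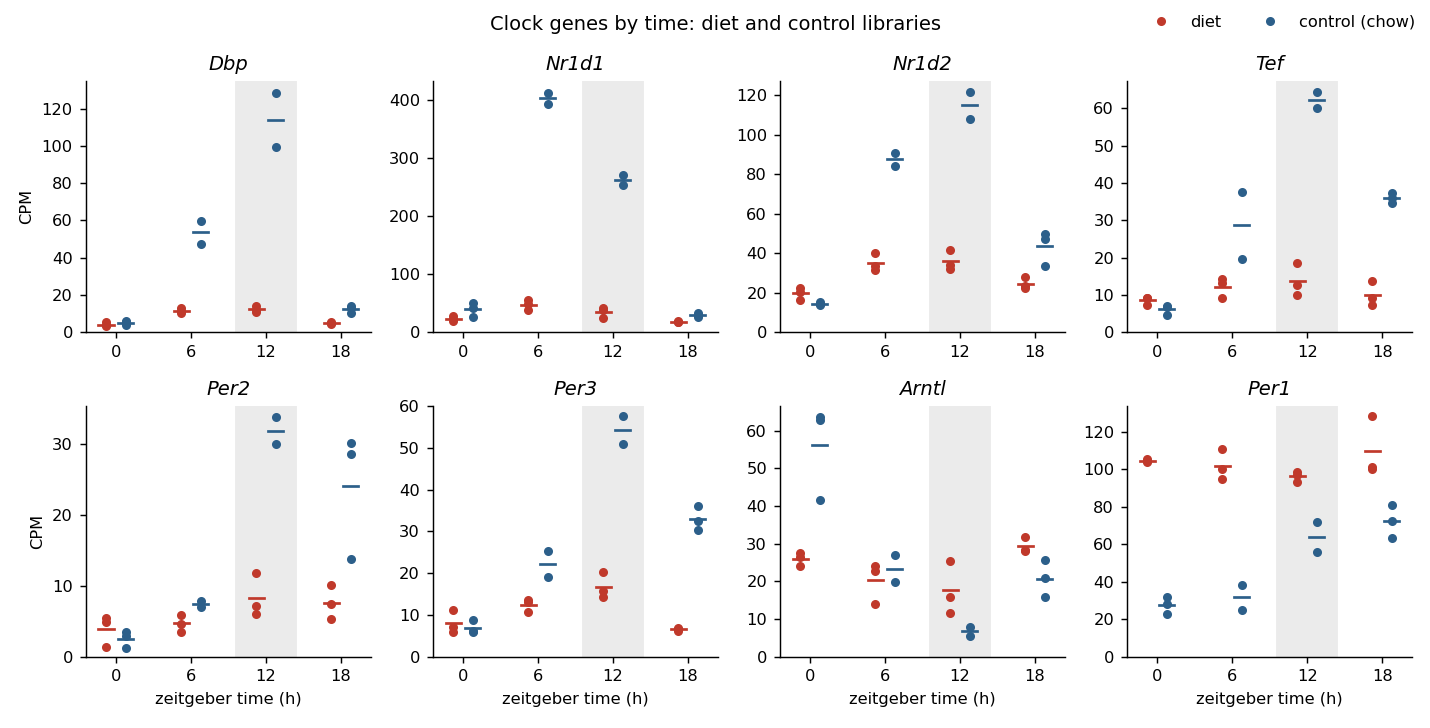
CPM of 8 clock genes in every library of the series by zeitgeber time; red points are diet and blue points control libraries, bars are group means, and grey shading marks ZT12. Control means of Dbp, Nr1d2, Tef, Per2 and Per3 are highest at ZT12, where Dbp averages 12.4 CPM under diet and 114 CPM in control.

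Several ER chaperones had a diet effect at ZT12 that differed from that at ZT6. Their response programme is known to run through a promoter element, and the promoters of 3 chaperones are shown for that reason. RefSeq places them on GRCm38.p6 at chr2:34771840-34772139 (Hspa5, plus strand), chr10:86705395-86705694 (Hsp90b1, minus strand) and chr12:17266339-17266638 (Pdia6, plus strand). The sequences run 5′ to 3′ along each gene, and capitals mark matches to the ER stress response element, which is CCAAT, then 9 bases of any kind, then CCACG, searched on both strands.
Hspa5: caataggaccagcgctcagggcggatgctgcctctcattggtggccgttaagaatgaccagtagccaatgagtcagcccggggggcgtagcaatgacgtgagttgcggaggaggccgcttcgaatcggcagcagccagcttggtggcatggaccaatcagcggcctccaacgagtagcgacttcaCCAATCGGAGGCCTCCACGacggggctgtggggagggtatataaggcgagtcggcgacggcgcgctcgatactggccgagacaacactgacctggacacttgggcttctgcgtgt
Hsp90b1: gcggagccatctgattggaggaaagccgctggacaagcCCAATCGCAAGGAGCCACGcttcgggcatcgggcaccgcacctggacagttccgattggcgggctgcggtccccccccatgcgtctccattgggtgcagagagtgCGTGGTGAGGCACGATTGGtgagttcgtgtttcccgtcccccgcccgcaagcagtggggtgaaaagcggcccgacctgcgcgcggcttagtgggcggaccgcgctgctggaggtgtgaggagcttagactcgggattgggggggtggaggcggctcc
Pdia6: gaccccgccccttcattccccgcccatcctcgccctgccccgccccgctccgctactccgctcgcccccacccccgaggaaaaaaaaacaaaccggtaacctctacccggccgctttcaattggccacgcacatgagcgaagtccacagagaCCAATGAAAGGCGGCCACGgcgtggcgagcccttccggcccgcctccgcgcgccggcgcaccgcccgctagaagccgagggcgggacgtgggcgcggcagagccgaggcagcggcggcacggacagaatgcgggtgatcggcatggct
The element stood in the promoters of 7 of the 22 ER genes that had one in the table, against 39 of all 32851 promoters (0.119%). A gene was counted if any of its promoters matched, while the share of all promoters counts each promoter, so these are unlike measures. A match describes letters in this window and is not a site of binding.

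Hspa5 (chromosome 2, 34771970 to 34777547) had 819, 771 and 776 CPM in the diet libraries, against 379 and 407 CPM in the control libraries. All 3 diet values of Hspa5 lay above both control values, at a log2 change of 1.00 ± 0.11 (adjusted p = 8.27e-07). The log2 change was close to this at ZT0 (0.91), opposite at ZT6 (-1.13), and 0.18 without a call at ZT18. Under diet Hspa5 averaged 943 CPM (ZT0), 790 CPM (ZT6), 789 CPM (ZT12) and 1246 CPM (ZT18). In control it averaged 501 CPM (ZT0), 1723 CPM (ZT6), 393 CPM (ZT12) and 1103 CPM (ZT18), lowest at ZT12. The diet effect at ZT12 minus its mean at the other times was 1.02 ± 0.13 (edgeR, adjusted p = 0.00332). Taken one time at a time it was called against ZT6 (adjusted p = 5.21e-07) and missed the threshold against ZT0 (0.925) and ZT18 (0.0609). It stood without control replicate 2 (log2 1.05, adjusted p = 0.0252) and was lost without control replicate 1 (0.97, adjusted p = 0.0726).

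Sdf2l1, a chaperone cofactor, had 31.9, 30.0 and 30.7 CPM under diet, against 13.2 and 18.1 CPM in control (log2 0.97 at ZT12 and -1.27 at ZT6). Hsp90b1, the ER form of HSP90, had 389 ± 17.5 CPM (SD, n = 3) under diet and 389.5 ± 64.0 CPM (n = 2) in control, at a log2 change of -1.97 at ZT6 and none to 2 decimals at ZT12 (adjusted p = 0.998). Pdia6, a disulfide isomerase, had a log2 change of 0.05 at ZT12 and -1.84 at ZT6. For Sdf2l1, Hsp90b1 and Pdia6 the difference between ZT12 and ZT6 was called (adjusted p 0.000157, 5.03e-05 and 0.00044), and that from the mean of the other times was not (adjusted p = 0.0899 each). Herpud1, a component of ER-associated degradation, went the other way, with 315, 275 and 269 CPM under diet, against 492 and 452 CPM in control (log2 -0.72, adjusted p = 0.000261). Sel1l, also of ER-associated degradation, changed by -1.03, and the stress factor Atf3 rose by 2.09. In the ER stress list as a whole 5 of 24 rose and 6 fell (median 0.11), beside 14.3% higher and 15.3% lower of all tested genes. The list median was 0.01 at ZT0, -1.11 at ZT6 and -0.02 at ZT18. By these medians the diet effect stood apart at ZT6 and not at ZT12. In the comparison with the mean of the other times, ZT6 among them, 13 of 24 had an unadjusted p under 0.05 (edgeR), against 7.27% of all genes. Without control replicate 2 it was 10 of 24, against 1588 of 25744 genes.

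**Figure D4:**
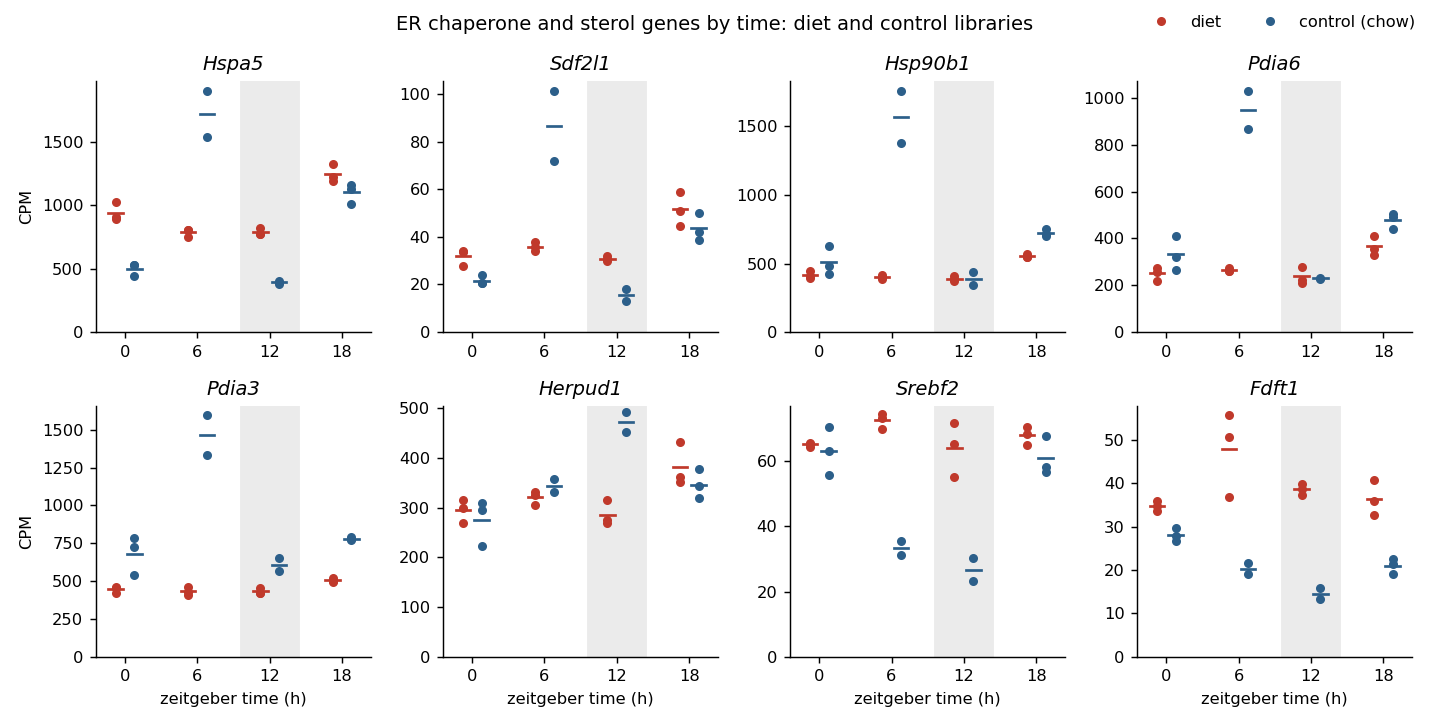
CPM of 6 ER genes and of Srebf2 and Fdft1 in every library of the series by zeitgeber time; red points are diet and blue points control libraries, bars are group means, and grey shading marks ZT12. Hspa5 averages 789 CPM under diet and 393 CPM in control at ZT12, and 790 CPM under diet and 1723 CPM in control at ZT6.

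The sterol genes that were called were higher under diet, with 1 exception. Of 24 cholesterol synthesis genes 10 rose and 1 fell (median 0.81), and 7 rose and 1 fell without control replicate 2. Srebf2, the master regulator of the pathway, had 65.2, 71.9 and 55.2 CPM under diet, against 23.3 and 30.2 CPM in control. Fdft1, which makes squalene, had 39.9, 37.4 and 38.7 CPM under diet, against 15.8 and 13.3 CPM in control (log2 1.41). Every diet value lay above both control values in both genes. For Srebf2 the log2 changes in time order from ZT0 to ZT18 were 0.05, 1.12, 1.26 and 0.16. Srebf2 was called against ZT0 (adjusted p = 0.0103) and not against the mean of the other times (adjusted p = 0.0899). The enzymes Cyp51 (2.03, and 2.72 without control replicate 1) and Sqle (1.82) rose, and the sterol carrier Stard4 fell (-0.83).

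By edgeR few genes had a diet effect particular to ZT12, although diet changed 6719 genes at ZT0 (30%), 6752 at ZT6 (30.1%) and 6916 at ZT18 (30.9%). The diet effect at ZT12 differed from its mean at the other times in 2 genes, Hspa5 and Dbp (0.00892% of those tested), and no gene was called against each of the 3 other times singly. DESeq2 called 105 genes in this comparison and edgeR with no filter on low counts 270, so its size depends on the tool and filter. Against single times 20 genes differed from ZT0 (0.0892%), 17 from ZT6 (0.0759%) and 2 from ZT18 (0.00892%), in comparisons added after the data were seen. The 20 against ZT0 included the clock genes Arntl, Ciart, Cry2, Dbp, Nr1d1, Nr1d2, Per1, Per3 and Tef. The 17 against ZT6 included the ER genes Hspa5, Hsp90b1, Sdf2l1, Pdia6, Pdia3, Calr, Creld2 and Manf. Of the 6641 genes called at ZT12, 6141 (92.5%) had the same sign of change at each other time, and 3767 were called in the same direction at all 4 times. Called in the opposite direction at another time were 32, among them Hspa5, Sdf2l1, Creld2, Arntl, Nr1d2, Cry2, Bhlhe41 and Wee1.

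**Figure D5:**
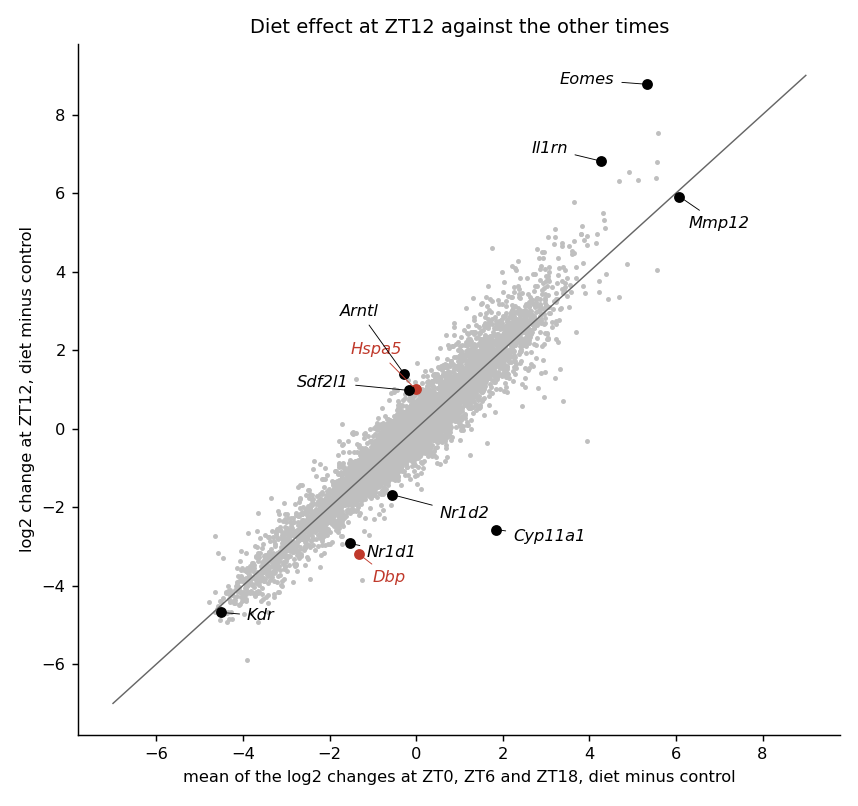
Log2 change at ZT12 (diet minus control, vertical axis) against the mean of the log2 changes at ZT0, ZT6 and ZT18 (horizontal axis) for 10916 genes with a mean log2 CPM of at least 2; the line marks equal values. Hspa5 and Dbp (red) are the 2 genes whose distance from the line passed the test, at 1.02 and -1.90.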

How the data were processed

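RNA-seq was made from 22 libraries. The authors deposited a table of read counts, whole numbers per gene symbol, and per the submitters' processing notes reads were handled with STAR 2.7.9a, HTSeq and DESeq2 on GRCm38 (mm10). Neither annotation nor strand setting is stated, so antisense and overlapping genes cannot be told apart. No entry lacks a gene name, and 0 columns belong to other samples. The deposited normalised table was not used.

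Groups came from sample titles. The test was that of edgeR 4.0.16 (with limma 3.58.1, run in R 4.3.3): filterByExpr, TMM, and glmQLFit and glmQLFTest on 1 model with 8 group means, adjusted by Benjamini-Hochberg over all tested genes at 0.05. One contrast was diet minus control at ZT12, the other that effect minus its mean at ZT0, ZT6 and ZT18. CPM are TMM-scaled, and log2 CPM has a prior count of 2. On simulated counts (21050 genes, 200 changed) the ZT12 contrast recovered 49% of 2-fold and 88% of 4-fold changes with 3.52% of calls false, and the difference 38%, 83% and 3.97%. Apart from the changed genes, the simulated libraries shared 1 mean per gene. They held no RNA of other organs and far fewer changed genes than were called here, so these shares may not carry over.

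Genes named are the 10 highest and 10 lowest called at ZT12 (mean log2 CPM of at least 2, no overlap, called without control replicate 2, no placeholder symbol), those called in the difference, 6 high in control replicate 2 (log2 CPM over 4), the clock list and up to 4 members of the other 32 lists by p; further list members and the genes of the single-time comparisons were named after their values were seen. Members and the 33 lists were chosen with earlier results of these data known. Coordinates come from GENCODE M21, which holds 53292 of the 55367 symbols. Same-numbered diet and control libraries did not deviate together (correlations -0.14 to 0.04), and the numbers were not treated as pairs in the main fit. With so few libraries per group this cannot exclude a pairing. Replicate pairs at ZT12 differed beyond counting noise (27.3 to 46.2 chi-square units per degree of freedom). Alternatives were RLE, library size only, no filter, DESeq2 1.42.0, a CPM minimum of 5 on average, the 5 ZT12 libraries alone, a replicate block, adrenal and hepatocyte scores as covariates, and libraries left out. Some members of the lists are counted but not reported by name here.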

Additional observations from a re-analysis of the deposited data

Results flagged for a closer look

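The diet effect on Hspa5 differed between times: at ZT12 it exceeded its mean at ZT0, ZT6 and ZT18 by 1.02 on the log2 scale (edgeR, adjusted p = 0.00332), with all 3 diet libraries above both control libraries at ZT12. Its effect at ZT12 (1.00) was close to that at ZT0 (0.91, adjusted p of the difference 0.925) and was called against ZT6 alone (-1.13), not against ZT18 (adjusted p = 0.0609). The diet effect on Dbp also differed between times, by -1.90 (adjusted p = 0.00994), with all 3 diet libraries below both control libraries at ZT12. Neither was called without replicate 1 of control ZT12.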

How the results depend on the processing

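The count of genes called at ZT12 stayed between 5904 and 7691 under RLE scaling, library size only, both filters, DESeq2, the 5 ZT12 libraries alone, the adrenal score, control ZT0 replicate 2 and control ZT18 replicate 1 left out together and the replicate block (6492), and between 4659 and 6920 with each library left out. With the hepatocyte score it was 1214. That score is higher in every diet library (6.03 to 7.15) than in any control library (4.58 to 5.51), so it and diet cannot be told apart.

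The count of genes whose diet effect differed at ZT12 stayed at 2 under both scalings, the adrenal score and the replicate block, and became 270 with no filter, 11 at a mean CPM of at least 5, 105 with DESeq2, 5 with the hepatocyte score and 15 without control ZT0 replicate 2 and control ZT18 replicate 1 together, the cause of which was not tested. With each library left out it ran from 1 to 15, highest without control ZT0 replicate 2. Against ZT0 alone it was 20 and against ZT6 alone 17.

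Signs turned for these genes. With the adrenal score the log2 change was 2.82 for Hsd3b1, 1.601 for Cyp21a1 and 0.66 for Cyp11a1. With the hepatocyte score it was 11.6 for Sftpc, 10.1 for Hsd3b1, 9.84 for Cyp21a1, 11.2 for Cyp11b1, 3.06 for Cyp11a1, 1.04 for Star, -0.98 for Usp2, -0.035 for Alb, -0.084 for Trf, -1.06 for Krt19, 0.36 for Th, -0.98 for Slc18a1 and 0.40 for Ddx3y. With library size only it was 0.043 for Hba-a2, 0.047 for Hba-a1 and 0.027 for Ddx3y. With each library left out it ran from -7.16 to 8.47 for Hsd3b1, -6.57 to 7.63 for Cyp21a1, -7.72 to 1.17 for Cyp11b1, -3.54 to 2.86 for Cyp11a1 and -0.39 to 0.052 for Ddx3y, each highest without control ZT12 replicate 2. It ran from -0.33 to 3.05 for Npas2, -1.85 to 0.17 for Slc4a1, -0.55 to 0.056 for Alas2 and -0.16 to 0.79 for Kdm5d, each with its sign turned without control ZT12 replicate 1, and from -0.093 to 2.28 for Slc18a1. Fitted changes against a control at 0 reads (Hsd3b1 and Cyp21a1) depend on the prior count. With 2 control libraries, 1 of them carrying other organs' RNA, small changes at ZT12 rest on few values.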

Other observations

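The list counts below stand beside 14.3% of all tested genes called higher and 15.3% called lower. Glucocorticoid-induced genes fell in 9 of 20 and rose in 5 (median log2 -0.68). Mt1, a metallothionein, had 55.2, 39.8 and 44.5 CPM under diet, against 552 and 510.5 CPM in control, and Klf9, a glucocorticoid-responsive factor, had 13.4, 13.6 and 12.5 CPM under diet, against 71.2 and 91.8 CPM in control. Immediate early genes rose in 13 of 24 and fell in 0 (median 0.78), led by the orphan receptors Nr4a2 (3.42) and Nr4a1 (2.28). Cell cycle genes rose in 17 of 28 and fell in 3 (median 1.05). Mki67, a proliferation marker, had 24.8, 28.1 and 29.8 CPM under diet, against 2.23 and 8.14 CPM in control. Its log2 change was 2.38, and 1.77 without control replicate 1 or 3.62 without control replicate 2.

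Ribosomal protein genes rose in 23 of 28 and fell in 0 (median 0.63), and mitochondrially encoded genes in 7 of 8 (median 0.86). Heat shock genes rose in 10 of 24 and fell in 3 (median 0.52), and 6 and 3 without control replicate 2, with Hspa4 at 0.64 and the cochaperone Bag3 at -1.10. Lipid lists were mixed: fatty acid synthesis had 6 higher and 5 lower of 18 (median 0.06; 3 and 4 without control replicate 2), fatty acid oxidation 3 and 4 of 20 (-0.06; 1 and 4), and lipid droplet and uptake 4 and 8 of 20 (-0.16). In the last of these Cd36, a fatty acid transporter, fell by 1.53 and Lpl, lipoprotein lipase, rose by 3.33 on the log2 scale. The counts for fatty acid oxidation were near the shares of all tested genes, and so show nothing particular to that list. Hypoxia genes had 4 higher and 6 lower of 20 (median 0.07), NRF2 targets 5 and 4 of 18 (0.04; 2 and 2 without control replicate 2), and p53 targets 5 and 4 of 16 (0.01). Of 5 sex-linked genes 1 was higher and 0 lower.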
